A study of Arabidopsis thaliana with 8 samples.

Results

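The comparison of the *iaa3* mutant with wild type seedlings in the absence of added brassinosteroid rested on 4 of the 8 RNA-Seq libraries of the study, 2 per genotype, which were chosen by their genotype and treatment labels. Whole *Arabidopsis thaliana* seedlings, either wild type Col-0 or *iaa3*, had grown for 5 days in the dark on medium with 2 µM propiconazole (PPZ), an inhibitor that blocks brassinosteroid (BR) synthesis, and received a mock treatment for 4 hr before harvest. The other 4 libraries were of the same genotypes treated with brassinolide (BL), an active BR. They entered the filter on low counts, the scaling of libraries and the shared estimate of the spread between libraries. They also entered the mean level by which the largest changes were picked, and the comparison with BL given near the end. The study describes *iaa3* as a gain-of-function mutant whose IAA3 protein is not removed in response to auxin, and every plant carried this change in all tissues and through all 5 days. The labels do not say whether the 2 libraries of a group came from separate cultures, so p-values measure the spread between these libraries, which may be technical. Because whole seedlings were used, fewer cells of a type and less RNA per cell cannot be told apart.

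Auxin acts through a family of repressors, the Aux/IAA proteins. At low auxin an Aux/IAA protein binds an AUXIN RESPONSE FACTOR (ARF) on the promoters of auxin-responsive genes and keeps them silent. Auxin fits between an Aux/IAA protein and a TIR1/AFB receptor, the repressor is marked for degradation, and the ARF is freed. Many of the genes that respond first encode Aux/IAA proteins themselves, SAUR proteins, which keep the plasma membrane proton pump active in expanding cells, and GH3 enzymes, which conjugate auxin to amino acids. In the hypocotyl of dark-grown seedlings ARF6 and ARF8 promote cell elongation together with the BR-activated factor BZR1 and the phytochrome-interacting factor PIF4. The comparison of *iaa3* with wild type on PPZ asks which genes differ when this repressor persists while BR is depleted.

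The 4 mock libraries held between 20877248 and 23183988 counts, so that 3 counts correspond to between 0.120 and 0.136 CPM (counts of a gene scaled to the size of its library). The pair of wild type libraries resembled each other less than the pair of *iaa3* libraries, the chi-square of their counts, divided by its degrees of freedom, being 12.1 over 20823 loci for wild type and 4.49 over 20469 loci for *iaa3*. Among 13139 genes with a mean of at least 8 CPM, 46 were at least 2-fold higher in wild type library 1 and 4 were at least 2-fold higher in wild type library 2, while the *iaa3* libraries differed in this way in 7 of 12935 genes. Of the 46 genes, 17 belonged to a list of 24 hypoxia response genes and 5 to a list of 19 seed storage genes. The summed level of the hypoxia list was 6469 and 2624 CPM in the wild type libraries against 9609 and 6825 CPM in the *iaa3* libraries, so that wild type library 1 lay close to *iaa3* library 2. The summed level of the seed storage list was 1075 and 239.8 CPM in the wild type libraries and 84.2 and 77.6 CPM in the *iaa3* libraries. Counts of genes below are therefore also given without single libraries where these decide the count.

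Of 33518 loci, 20415 had enough counts to be tested, and 3664 of them (17.9%) differed between *iaa3* and wild type by at least 1.5-fold with an unadjusted p under 0.01, the thresholds of the study's methods. The adjusted p of these genes was at most 0.0308. They divided into 1729 genes that rose in *iaa3* (8.47% of those tested) and 1935 that fell (9.48%), with a median log2 fold change of -0.01 over all tested genes. A difference of at least 2-fold was seen for 824 of the genes that rose and 1082 of those that fell, and one of at least 4-fold for 216 and 361. Scaling by library size alone moved the median of all tested genes to -0.13, and 34.1% of the called genes were then higher in *iaa3*, against 47.2% in the main analysis. In the account below a log2 fold change is *iaa3* over wild type with its standard error (SE), CPM values stand in the order library 1 and library 2 with wild type before *iaa3*, and "rose" and "fell" are used only for genes past both thresholds.

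**Figure D1:**
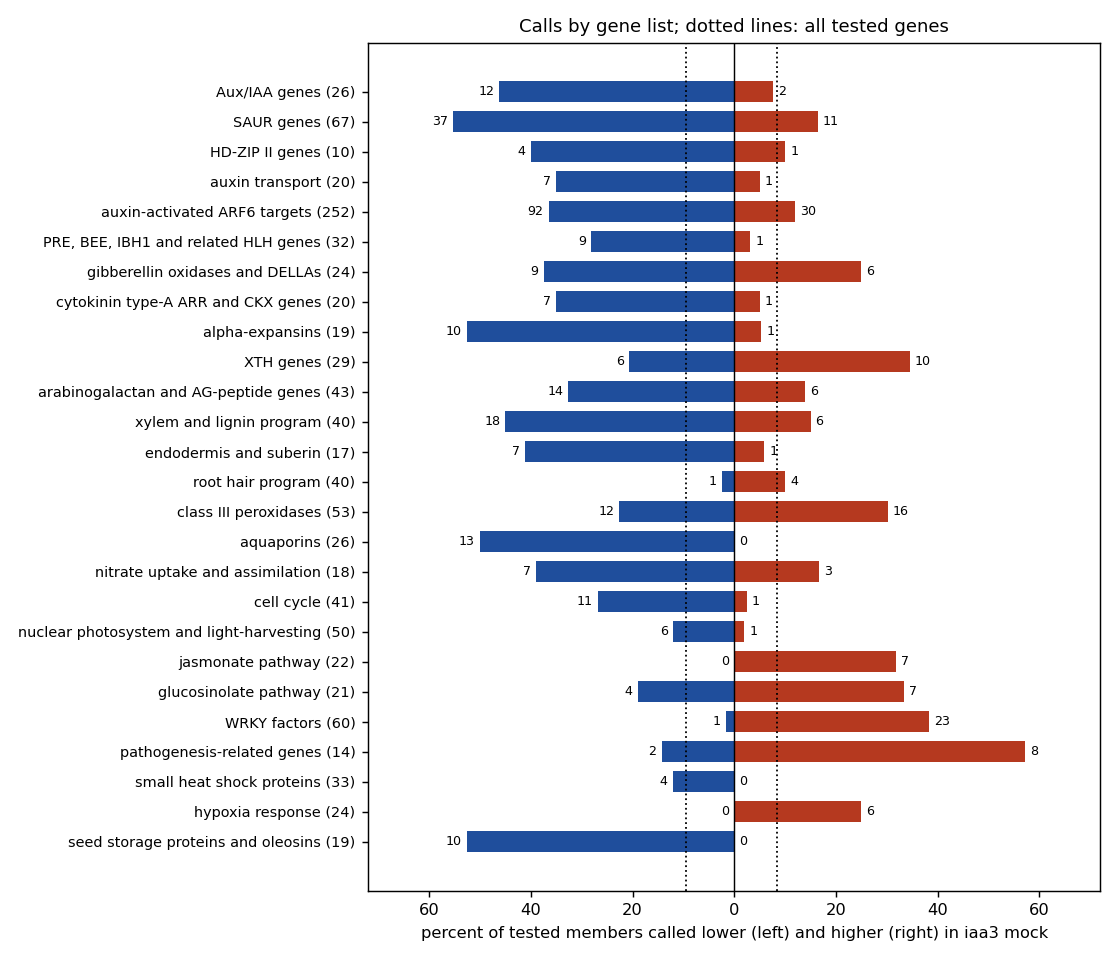
Share of the tested members of 26 gene lists called lower (blue, left) and higher (red, right) in the *iaa3* mock libraries, in percent, with the number of called genes beside each bar and the number tested in parentheses. Dotted lines mark the shares over all tested genes, 9.48% lower and 8.47% higher; the SAUR, Aux/IAA, alpha-expansin, aquaporin, xylem and seed storage bars extend furthest to the left and the pathogenesis-related and WRKY bars to the right.

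The *IAA3* transcript itself was lower in the mutant, at 45.2 and 45 CPM in the wild type libraries and 13.7 and 11.1 CPM in the *iaa3* libraries, a log2 fold change of -1.86 ± 0.10 (adjusted p = 4.51e-07). The *IAA3* gene lies on the minus strand of chromosome 1 at chr1:1128149-1129689 in the TAIR10.1 build. The factors with which auxin output is joined in the study were not among the called genes. *ARF6* was at 193 and 183 CPM in the wild type libraries and 222 and 220.5 CPM in the *iaa3* libraries, and *ARF8* at 47.1 and 42.3 against 48.8 and 44.6 CPM in the same order. The corresponding values of *BZR1* were 42.8 and 39.4 against 39.7 and 35.9 CPM. *PIF4*, the dark and warmth growth regulator, was at 40.01 and 38.9 against 37.4 and 32.1 CPM, and *IBH1*, an HLH inhibitor of elongation, at 50.9 and 52.9 against 39.2 and 39.4 CPM. For these 5 genes the log2 fold changes lay between -0.40 for *IBH1* and 0.24 for *ARF6*.

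Among the Aux/IAA genes, 12 of the 26 tested members fell and 2 rose, and the median log2 fold change was -0.60. *IAA19*, an early auxin-induced member, was at 10.9 and 11.6 CPM in the wild type libraries and 3.4 and 2.68 CPM in the *iaa3* libraries. All wild type values of *IAA19* were above all *iaa3* values, and its log2 fold change was -1.88 ± 0.15 (adjusted p = 7.97e-06). *IAA1* fell from 22.8 and 23.4 to 1.34 and 1.95 CPM, a log2 change of -3.81 ± 0.20, and *IAA29*, which is also a target of PIF factors, fell from 17.1 and 17.7 to 1.21 and 1.68 CPM. Of the further members that fell, *IAA2* went from 296 and 279.6 to 144 and 136 CPM, *IAA7* from 349 and 342 to 119 and 118 CPM and *IAA17* from 90.1 and 85.8 to 15.3 and 17.7 CPM, 3 genes chosen after their values were seen. Both members that rose did so by a smaller step. *IAA27* was at 25.5 and 26.4 CPM in the wild type libraries and 39.7 and 41.1 CPM in the *iaa3* libraries, a log2 change of 0.64 ± 0.07. *IAA28*, a repressor with a known part in lateral root formation, was at 31.9 and 35.3 CPM in the wild type libraries and 55 and 59.2 CPM in the *iaa3* libraries, a log2 change of 0.76 ± 0.07. None of the 15 tested *ARF* genes passed both thresholds in edgeR or in DESeq2 (median -0.17), although 3 were higher and 7 lower at an unadjusted p under 0.05. Of the 6 receptor genes 1 fell, *GRH1*, also called *AFB1*, from 89.2 and 84.5 to 46.9 and 45.5 CPM.

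**Figure D2:**
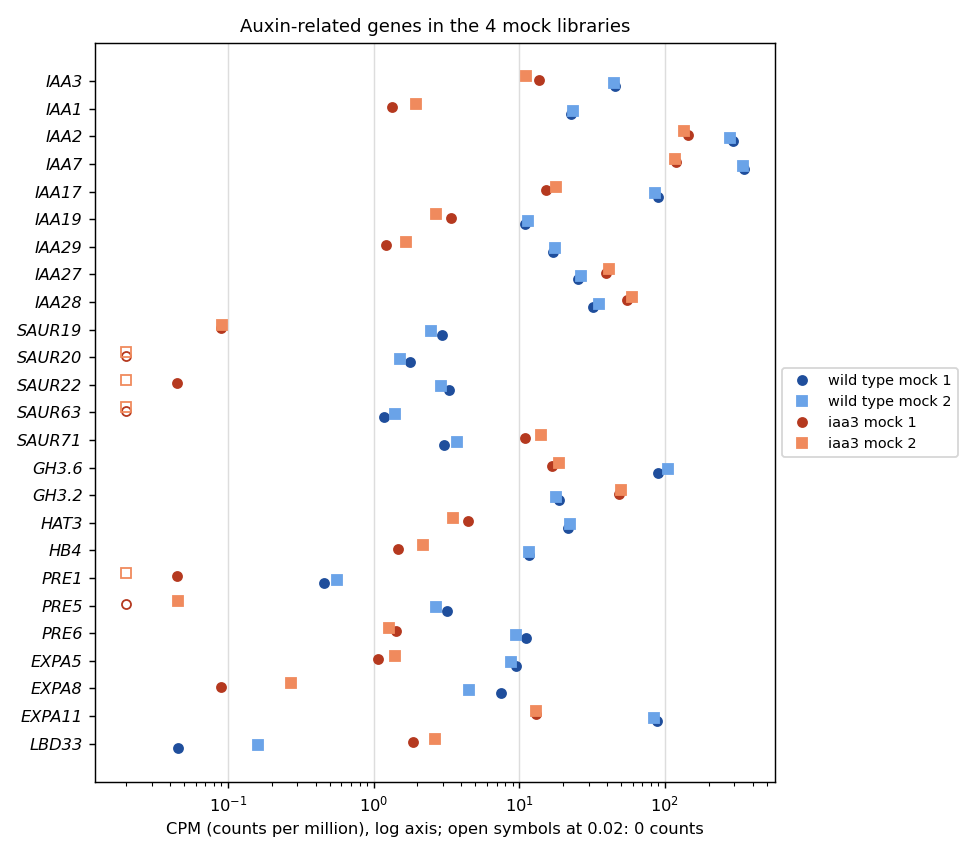
CPM on a log axis of 25 auxin-related genes in each of the 4 mock libraries, blue for wild type and red for *iaa3*, circles for replicate 1 and squares for replicate 2, with open symbols at 0.02 for a count of 0. Wild type symbols lie to the right for *IAA1*, *IAA19*, *GH3.6*, *HAT3*, *HB4*, the expansins and most SAUR genes, whereas *IAA27*, *IAA28*, *SAUR71*, *GH3.2* and *LBD33* lie to the right in *iaa3*.

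The sequences before 2 of the genes that fell are shown because ARF proteins bind short auxin response elements, with TGTCTC and TGTCGG as the best known forms, and because BZR1 and PIF4 bind the G-box CACGTG. The 250 bases before the annotated start are given 5′ to 3′ on the gene's own strand, from the RefSeq copy of TAIR10.1, with each of these motifs in capitals on either strand. The window of *IAA19* is chr3:5263751-5264000 on the plus strand and that of *IAA1* is chr4:8360746-8360995 on the plus strand.
IAA19: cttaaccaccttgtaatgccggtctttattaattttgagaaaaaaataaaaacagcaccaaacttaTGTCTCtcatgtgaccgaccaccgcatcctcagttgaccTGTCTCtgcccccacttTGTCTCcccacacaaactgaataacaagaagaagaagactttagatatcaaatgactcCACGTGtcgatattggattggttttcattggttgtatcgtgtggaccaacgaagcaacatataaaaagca
IAA1: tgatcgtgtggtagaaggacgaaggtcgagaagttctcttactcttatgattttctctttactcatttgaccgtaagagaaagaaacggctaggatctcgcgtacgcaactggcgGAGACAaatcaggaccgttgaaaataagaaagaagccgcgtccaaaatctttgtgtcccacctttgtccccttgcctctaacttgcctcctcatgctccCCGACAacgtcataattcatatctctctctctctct
The *IAA19* window held 3 copies of TGTCTC and 1 of CACGTG, and the *IAA1* window held 1 copy each of TGTCTC and TGTCGG. Other windows read in the same way held fewer. That of *IAA3*, which also fell, held none of the 3 motifs, and that of *SAUR63*, which fell too, held 1 TGTCGG only. The windows of *XTH22* and *TCH3*, which rose, held none. Over windows from 250 bases before to 50 bases after the start, TGTCTC on either strand was present in 13.7% of all tested genes, in 16.1% of those that fell and in 13.6% of those that rose. Among genes that fell or rose by at least 4-fold the TGTCTC shares were 17.7% and 17.6%. For TGTCGG the shares over all tested genes, those that fell and those that rose were 5.55%, 4.76% and 4.99%. For CACGTG they were 8.80%, 10.7% and 8.94%, and they were 15.0% and 6.48% among genes that fell or rose by at least 4-fold. Of the 26 tested Aux/IAA genes, 38.5% held TGTCTC and 23.1% held TGTCGG. The shares were 41.7% and 16.7% among the 12 Aux/IAA genes that fell. For SAUR genes, TGTCTC was present in 16.4% of the 67 tested and in 24.3% of the 37 that fell. These are matches of letters, and binding was not measured in these libraries.

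The SAUR genes were the auxin-responsive family with the lowest median. Of 67 tested members 37 fell and 11 rose, with a median log2 fold change of -1.52. It was -1.39 when members with at most 3 counts in both libraries of a group were set at their bound. DESeq2 called 30 lower and 10 higher. Of the 23 members with at least 10 counts in every library, 4 fell and 8 rose, with a median of 0.22. That filter leaves out members near absent in *iaa3*. The summed level of the family was nonetheless not lower in *iaa3*, at 334 and 314 CPM against 328.5 and 274 CPM in wild type. Abundant members that rose, such as *SAUR36* from 38.3 and 32.5 to 59.2 and 57.5 CPM and *SAUR44* from 15.2 and 14.6 to 37.8 and 35.2 CPM, contributed to that sum. The 6 neighbouring genes *SAUR19* to *SAUR24* on chromosome 5, a group known to promote hypocotyl elongation, all fell. Together they had 343 and 330 counts in the wild type libraries and 7 and 4 counts in the *iaa3* libraries, a 58.1-fold lower summed CPM. *SAUR20* had 39 and 38 counts in the wild type libraries and 0 and 0 in the *iaa3* libraries, so that it was at least 12.2-fold lower, and *SAUR22* had 73 and 73 counts in the wild type libraries and 1 and 0 in the *iaa3* libraries, at least 23-fold lower. These genes are close copies of each other, and reads could have been divided among the copies, so the sum is firmer than any single member. A second group, *SAUR61* to *SAUR68*, had 319 and 336 counts in wild type against 10 and 18 in *iaa3*, and 7 of its 8 tested members fell. *SAUR63* was at 26 and 35 counts in the wild type libraries and 0 and 0 in the *iaa3* libraries, at least 9.53-fold lower, and *SAUR26* was at 24 and 28 counts in the wild type libraries and 0 and 0 in the *iaa3* libraries, at least 8.16-fold lower.

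Within the group of *SAUR19* to *SAUR24*, *SAUR20* and *SAUR22* carry a shared stretch around the reverse complement of TGTCTC, which is in capitals below, 25 and 115 bases before the annotated start. The *SAUR20* stretch is chr5:5966786-5966834 and the *SAUR22* stretch is chr5:5975173-5975226, both on the minus strand of TAIR10.1 and written 5′ to 3′ on the gene's strand.
SAUR20: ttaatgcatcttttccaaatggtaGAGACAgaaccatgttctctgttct
SAUR22: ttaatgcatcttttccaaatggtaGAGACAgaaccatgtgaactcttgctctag
No TGTCTC was found in the 250 bases before *SAUR19*, *SAUR21*, *SAUR23* and *SAUR24*, which fell as well. The 48 remaining SAUR genes were divided, with 19 lower, 11 higher and a median of -0.59. *SAUR71* rose from 3.04 and 3.75 to 10.9 and 14.1 CPM and *SAUR43* from 0.227 and 0.12 to 0.984 and 1.09 CPM, and *SAUR48* had 0 and 0 counts in the wild type libraries and 7 and 12 in the *iaa3* libraries, at least 3.35-fold higher. *SAUR15*, a gene named in the study, was near its detection limit with 12 and 5 counts in the wild type libraries and 2 and 1 in the *iaa3* libraries. Its log2 change of -2.33 ± 0.70 passed the test with all libraries and did not without wild type library 1 (-1.49), *iaa3* library 1 (-2.84) or *iaa3* library 2 (-1.95).

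The other early auxin families held members that moved in opposite directions. Of 8 tested GH3 genes 2 fell and 1 rose. *GH3.6* was at 89.9 and 105 CPM in the wild type libraries and 16.8 and 18.8 CPM in the *iaa3* libraries and *GH3.5* at 248 and 265 against 144 and 152 CPM, both lower in *iaa3*, with log2 changes of -2.45 ± 0.11 and -0.80 ± 0.08. *GH3.2*, an enzyme of the same activity, rose from 18.7 and 18 to 48.1 and 50.3 CPM. Among 22 tested LBD genes, transcription factors of organ boundaries and lateral roots, 5 rose and 2 fell, and *LBD33* rose from 0.0454 and 0.16 to 1.88 and 2.63 CPM and *LBD17* from 1.18 and 1.95 to 4.34 and 6.13 CPM. Of 10 class II HD-ZIP genes, which respond to shade and auxin, 4 fell and 1 rose. *HAT3* fell from 21.7 and 22.3 to 4.43 and 3.49 CPM, *HB4* from 11.7 and 11.6 to 1.48 and 2.18 CPM and *HAT4*, also known as *ATHB2*, from 63.5 and 57.8 to 35.9 and 32.4 CPM.

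Auxin transport genes fell more often than they rose, and few synthesis genes passed the test. Of 9 tested biosynthesis genes 2 fell and none rose, and 1 fell when any single library was left out. *TAA1*, the tryptophan aminotransferase at the first step, fell from 15.5 and 15.8 to 7.96 and 7.35 CPM. Of 20 transport genes 7 fell and 1 rose, with a median of -0.38. *LAX2*, an auxin influx carrier of vascular tissue, was at 15.1 and 15.6 CPM in the wild type libraries and 3.17 and 2.41 CPM in the *iaa3* libraries. The protein kinases *WAG2* and *WAG1*, which act on PIN efflux carriers, fell from 3.49 and 3.35 to 0.268 and 0.454 CPM and from 1.72 and 1.63 to 0.313 and 0.499 CPM. The log2 changes of *LAX2*, *WAG2* and *WAG1* were -2.46, -3.23 and -2.03. *PILS3*, of a family that holds auxin inside the cell, rose from 63.3 and 59.9 to 99.4 and 94.1 CPM.

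Genes near ARF6 binding sites that auxin activates in the hypocotyl, a list taken from the study's separate ChIP-Seq and auxin data, gave 92 of 252 tested members lower and 30 higher, with a median of -0.19. Their summed level nevertheless was higher in *iaa3*, at 22750 and 23200 CPM against 17250 and 17110 CPM in wild type. A few abundant members carried this sum. *ASN1*, an asparagine synthetase that is induced in prolonged darkness, was at 2909 and 3539 CPM in the wild type libraries and 5781 and 6059.6 CPM in the *iaa3* libraries, and *AT1G21400* was at 692 and 738 against 1616 and 1629 CPM. *ERD5*, the proline dehydrogenase that is induced by drought and starvation, was at 506 and 499 against 992 and 1021 CPM. *TCH3*, a touch-induced calmodulin-like protein, was at 139 and 139.8 CPM in the wild type libraries and 757 and 938 CPM in the *iaa3* libraries, a log2 change of 2.60 ± 0.22 (adjusted p = 1.06e-05). These 4 genes rose while the list's median was below 0. Of its 208 members with at least 10 counts in every library, 56 fell and 29 rose, and the median was -0.005.

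The growth-promoting HLH genes of the PRE group, which free other bHLH factors from inhibitors such as IBH1, included 3 that fell in *iaa3*, *PRE1*, *PRE5* and *PRE6*. *PRE5* had 70 and 67 counts in the wild type libraries and 0 and 1 in the *iaa3* libraries, at least 21.6-fold lower, and *PRE1* had 10 and 14 counts in the wild type libraries and 1 and 0 in the *iaa3* libraries, at least 3.74-fold lower. *BNQ2*, also known as *PRE2* and chosen after its value was seen, had 3 and 2 counts in the wild type libraries and 2 and 7 in the *iaa3* libraries and did not pass the test. *PRE6* was detected in all 4 libraries, at 11.1 and 9.57 CPM in the wild type libraries and 1.43 and 1.27 CPM in the *iaa3* libraries, with a log2 change of -2.92 ± 0.17 (adjusted p = 8.90e-07). In the wider list of 32 tested HLH genes 9 fell and 1 rose, with a median of -0.23. The member that rose, *PIF7*, a factor of shade responses, went from 0.499 and 0.678 to 3.22 and 3.09 CPM.

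Among genes of other hormones, gibberellin genes moved in both directions. Of 24 tested members 9 fell and 6 rose. *GASA4*, which encodes a gibberellin-regulated peptide, fell from 2409.9 and 2237 to 249 and 229.5 CPM, a 9.7-fold lower mean. *GA2OX8* and *GA2OX2*, enzymes that inactivate gibberellin, rose from 0.363 and 0.439 to 1.21 and 1.68 CPM and from 8.89 and 8.81 to 23.1 and 24 CPM, while *GA2*, the ent-kaurene synthase of gibberellin synthesis, fell from 7.35 and 7.34 to 2.91 and 2.86 CPM. The cytokinin list had 7 of 20 tested genes lower and 1 higher. Its response regulators *ARR6* and *ARR5*, which damp cytokinin signaling, fell from 9.34 and 11.2 to 2.95 and 2.31 CPM and from 16.9 and 17.5 to 8.32 and 7.49 CPM, and *IPT7*, a cytokinin synthesis enzyme, rose from 1.5 and 2.11 to 5.41 and 5.86 CPM. The cytokinin count fell to 4 lower without wild type library 2 or without *iaa3* library 2.

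Abscisic acid genes gave 6 of 16 lower and 1 higher, with a median of -0.58 that was -0.20 without wild type library 2. *NCED3*, the enzyme of the rate-limiting step of abscisic acid synthesis, fell from 1.27 and 2.03 to 0.626 and 0.363 CPM, and the phosphatase gene *ABI2* from 10.9 and 14 to 3.93 and 4.08 CPM. Jasmonate genes went the other way, with 7 of 22 higher, none lower and a median of 0.41, but only 4 were higher without wild type library 1, without *iaa3* library 2 or when libraries were scaled by size alone. *JAZ10*, a jasmonate repressor, rose from 18.9 and 22.5 to 44.9 and 49.2 CPM and *AOC3*, an allene oxide cyclase, from 15.2 and 19.2 to 35.2 and 46.3 CPM. Ethylene synthesis genes gave 4 of 21 higher and 2 lower, with *ACS2* at 4.08 and 4.31 against 8.23 and 9.08 CPM. *ACS5*, an ethylene synthesis gene named in the study, did not pass the test, with 6 and 8 counts in the wild type libraries and 0 and 2 in the *iaa3* libraries. Of the BR genes, 1 of 8 for synthesis fell (12.5%, against 9.48% of all tested genes) and none rose. For inactivation 1 of 7 rose (14.3%, against 8.47% of all tested genes). These were *BR6OX1*, the BR C-6 oxidase, at 10.1 and 9.45 against 2.01 and 1.77 CPM, and *DOGT1*, a BR glucosyltransferase, at 10.3 and 7.58 against 22 and 23.1 CPM.

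Cell wall genes separated by family. Alpha-expansins, which loosen the wall during growth, gave 10 of 19 tested members lower and 1 higher, with a median of -0.65, or -1.04 without *iaa3* library 2. *EXPA8*, named in the study, was at 7.48 and 4.55 CPM in the wild type libraries and 0.0894 and 0.272 CPM in the *iaa3* libraries. *EXPA5* and *EXPA11* fell from 9.57 and 8.81 to 1.07 and 1.41 CPM and from 88.3 and 84.1 to 13 and 13 CPM, with log2 changes of -2.88 ± 0.25 and -2.73 ± 0.14. Xyloglucan endotransglucosylases (XTH), which cut and rejoin xyloglucan chains, gave 10 of 29 higher and 6 lower, and a median of 0.44 that was 0.20 without *iaa3* library 2. *XTH22*, also called *TCH4* and induced by touch, was at 102 and 95.1 CPM in the wild type libraries and 447 and 449 CPM in the *iaa3* libraries, and *XTH23* was at 73.8 and 68.8 against 284 and 273 CPM. Their log2 changes were 2.18 and 1.97, whereas *XTH19*, a gene expressed in roots, fell from 32.3 and 26.8 to 10.5 and 12.1 CPM. Without *iaa3* library 1 the number of XTH genes lower was 3. Expansin-like *EXLB1* rose from 5.49 and 4.86 to 21.2 and 19.4 CPM and *EXLA1* from 60.1 and 61.2 to 105 and 98 CPM.

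**Figure D3:**
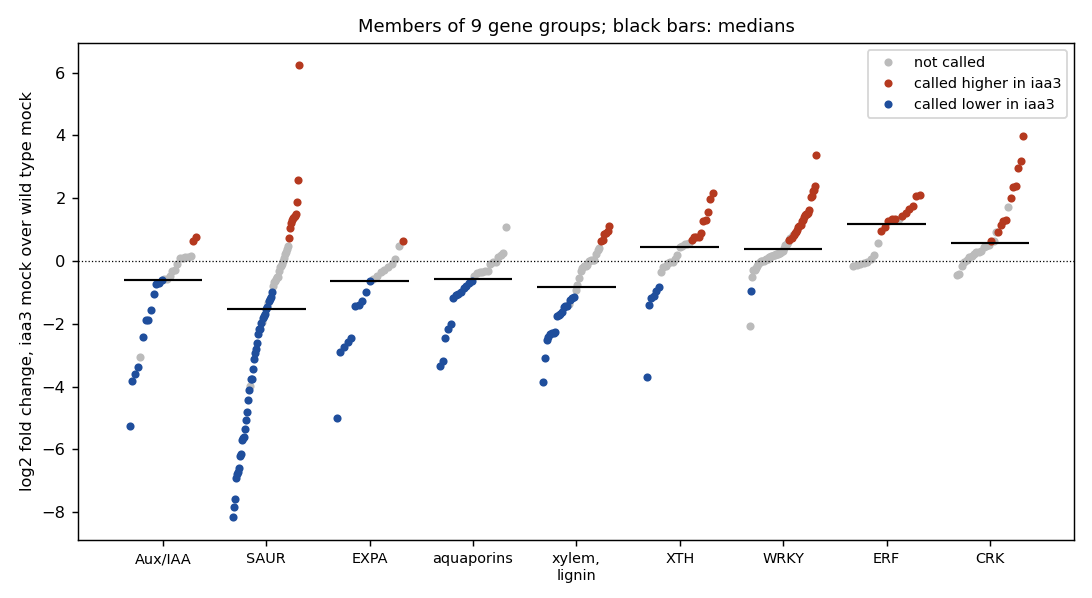
Log2 fold change, *iaa3* mock over wild type mock, of each tested member of 9 gene groups, ordered within a group, with members called higher in red, called lower in blue and not called in grey, and the median as a black bar. The SAUR, Aux/IAA, EXPA, aquaporin and xylem medians lie below 0 and those of the XTH, WRKY, ERF and CRK genes above it.

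Arabinogalactan proteins, glycoproteins of the wall and membrane, gave 14 of 43 lower and 6 higher (median -0.38). *FLA11*, a fasciclin-like member of secondary walls, fell from 5.17 and 6.5 to 1.21 and 1.36 CPM and *AGP4* from 72.1 and 47.7 to 12.2 and 11.8 CPM, while *AGP5* rose from 0.499 and 1.16 to 3.71 and 5.58 CPM and *AGP1* from 14.1 and 13.8 to 30.4 and 36.8 CPM. Early nodulin-like genes (ENODL) gave 6 of 12 lower and 1 higher, with *ENODL8* at 35.2 and 30.6 against 7.11 and 10.1 CPM. Pectin methylesterase genes, which alter wall stiffness, gave 3 of 13 higher and 1 lower in the list that had been drawn up. *ATPMEPCRD*, annotated in the same superfamily, had one of the largest falls, from 148 and 134 to 5.68 and 5.45 CPM, whereas *ATPMEPCRB* rose from 53.7 and 56.3 to 191 and 203 CPM. *ATCSLA09*, a mannan synthase, and *BGAL7*, a beta-galactosidase, fell from 24.8 and 27.1 to 2.32 and 2.27 CPM and from 31.8 and 47.4 to 2.19 and 3.04 CPM. None of the 6 cellulose synthase genes of the primary wall passed both thresholds in edgeR or in DESeq2, with 3 higher and 1 lower at an unadjusted p under 0.05.

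Genes of xylem and of the secondary wall fell more often than they rose. All 3 tested cellulose synthase genes of the secondary wall fell, *IRX1* (also *CESA8*) from 8.35 and 8.93 to 1.56 and 1.95 CPM, *IRX3* (also *CESA7*) from 8.26 and 10.5 to 3.22 and 2.54 CPM and *CESA4* from 14.7 and 18.6 to 5.86 and 6.54 CPM. Of 40 tested genes of a xylem and lignin list 18 fell and 6 rose, with a median of -0.83, or -0.55 without wild type library 2. Among the 31 members with at least 10 counts in every library, 12 fell and 6 rose, with a median of -0.18. *LAC11*, a laccase that polymerizes lignin, was at 7.08 and 9.81 CPM in the wild type libraries and 0.805 and 1.18 CPM in the *iaa3* libraries, and the xylan genes *IRX9* and *IRX8* fell from 1.18 and 1.44 to 0.268 and 0.182 CPM and from 1.36 and 2.27 to 0.492 and 0.182 CPM. The members that rose included *PAL1*, *PAL4* and *C4H*, enzymes of general phenylpropanoid metabolism that are not particular to xylem, at 129 and 142 against 264 and 265 CPM, at 25 and 32.5 against 50.8 and 56.7 CPM and at 396 and 306 against 811 and 705 CPM. All 16 tested genes whose symbols begin with IRX gave 10 lower and none higher, 8 to 10 without single libraries. Whether seedlings had less xylem or less RNA of these genes per xylem cell was not measured.

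Genes of the endodermis, aquaporin genes and nitrate genes also differed. Of 17 endodermis and suberin genes 7 fell and 1 rose, with *CASP5*, *CASP4* and *CASP1*, which scaffold the Casparian strip, at 27.6 and 34.6 against 6.44 and 8.58 CPM, at 6.17 and 5.86 against 1.92 and 1.72 CPM and at 40.2 and 43.9 against 17.7 and 18 CPM. Aquaporins gave 13 of 26 lower and none higher, with a median of -0.56. The tonoplast aquaporin *TIP2;3* was at 23.2 and 27.7 CPM in the wild type libraries and 2.73 and 2.27 CPM in the *iaa3* libraries. *TIP2;2* was at 57.6 and 75.2 against 12.4 and 12.1 CPM. The plasma membrane members *PIP1;5* and *PIP2;4* fell from 252 and 231 to 54.2 and 52.9 CPM and from 51.1 and 53.5 to 11.5 and 14.6 CPM. Of 18 nitrate genes 7 fell and 3 rose. *NRT1.5*, which loads nitrate into the xylem, fell from 36.5 and 31.9 to 4.74 and 4.86 CPM, *NRT2:1*, a high-affinity uptake carrier, from 2.81 and 4.39 to 0.984 and 0.862 CPM, and *NIA1*, a nitrate reductase, from 334 and 361 to 89.8 and 117 CPM, while *NRT1.8*, which retrieves nitrate from the xylem, rose from 10.6 and 8.77 to 33.9 and 38.3 CPM.

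Iron genes gave 3 of 14 lower, among them the nicotianamine synthase *NAS4* at 1.91 and 2.03 against 0.0894 and 0.272 CPM and *FRU* (also *FIT*), the regulator of root iron uptake, at 8.16 and 8.09 against 3.44 and 2.81 CPM. Of 25 tested genes of potassium and proton transport 1 rose and 3 fell, with a median of 0.008. The potassium carrier *HAK5* rose from 0.544 and 0.678 to 2.77 and 3.86 CPM, while *KT2/3*, *KUP11* and *HA2* fell. In the phosphate list 3 of 17 rose and 1 fell, with *SPX1*, a phosphate sensor protein, at 8.62 and 8.09 against 19.4 and 17.4 CPM. Class III peroxidases were divided, with 16 of 53 higher and 12 lower. That split turned to 12 higher and 16 lower when libraries were scaled by size alone. *AT3G03670* rose from 0.862 and 0.0797 to 5.36 and 3.95 CPM and *AT2G41480* fell from 2.68 and 5.98 to 0.626 and 0.681 CPM. Amino acid transporter-like genes of the UMAMIT family gave 10 of 33 lower and none higher, with *UMAMIT4* at 1.91 and 1.95 against 0.134 and 0.318 CPM and *UMAMIT36* at 24 and 47 counts in the wild type libraries and 0 and 0 in the *iaa3* libraries, at least 11-fold lower. Major latex protein-like genes (MLP) gave 5 of 9 lower and 1 higher, with *MLP43* at 24.4 and 27.6 against 3.26 and 2.95 CPM and *MLP34* at 30.7 and 44.6 against 5.99 and 5.36 CPM.

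WRKY and pathogenesis-related genes rose more often than they fell. So did the genes whose symbols begin with ERF or CRK, groups that were named for their high share of calls. Of 60 tested WRKY transcription factors, many of which act in immunity, 23 rose and 1 fell, with a median of 0.38. *WRKY46* was at 0.726 and 0.439 CPM in the wild type libraries and 4.83 and 7.22 CPM in the *iaa3* libraries, and *WRKY70*, a factor of the salicylic acid pathway, was at 4.99 and 4.43 CPM in the wild type libraries and 21.9 and 26.9 CPM in the *iaa3* libraries. The log2 changes of *WRKY46* and *WRKY70* were 3.38 ± 0.39 and 2.38 ± 0.25. *WRKY33*, a factor of camalexin synthesis chosen after its value was seen, was at 41.2 and 33.9 CPM in the wild type libraries and 138 and 178 CPM in the *iaa3* libraries. Without single libraries 20 to 23 WRKY genes rose, and 19 when libraries were scaled by size alone.

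Of the genes whose symbols begin with ERF, ethylene response factors, 11 of 20 rose and none fell (median 1.18). Genes of this family with other symbols were not counted here. *ERF6* was at 10.1 and 8.77 against 32.9 and 46.9 CPM and *ERF13* at 0.318 and 0.399 against 1.3 and 1.86 CPM. Cysteine-rich receptor-like kinases (CRK) gave 11 of 28 higher and none lower (median 0.58). *CRK13* rose from 1.18 and 1.56 to 12.2 and 12.9 CPM, and *CRK39* had 2 and 2 counts in the wild type libraries and 32 and 32 in the *iaa3* libraries, at least 11.3-fold higher. Wall-associated kinase-like genes (WAKL) gave 5 of 8 higher, with *WAKL10* at 0.408 and 0.518 against 1.43 and 1.41 CPM, and cyclic nucleotide-gated channels (CNGC) gave 5 of 14 higher, with *CNGC3* at 0.998 and 0.797 against 2.95 and 3.68 CPM. NAC factors gave 12 of 50 higher and none lower, with *NAC019* at 2.99 and 2.67 against 8.54 and 11.1 CPM and *NAC042* at 1.95 and 1.44 against 5.19 and 5.4 CPM, but 8 without wild type library 1 or *iaa3* library 2 and 7 when scaled by library size alone. Phi-class glutathione transferases gave 4 of 10 higher and 1 lower, led by *GSTF6*, at 153 and 123 CPM in the wild type libraries and 658 and 668 CPM in the *iaa3* libraries.

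In the list of 14 pathogenesis-related genes 8 rose and 2 fell, with a median of 0.86. *SARD1* and *CBP60G*, which switch on salicylic acid synthesis, rose from 0.544 and 0.518 to 2.86 and 3.86 CPM and from 6.62 and 6.86 to 27.4 and 31 CPM. The salicylic acid marker *PR1* moved the other way, from 3.27 and 3.19 to 0.805 and 0.953 CPM, a log2 change of -1.87 ± 0.26. The glucosinolate list gave 7 of 21 higher and 4 lower, with *BCAT4*, an enzyme of methionine chain elongation, at 0.181 and 0.12 against 0.849 and 0.999 CPM and *MYB51*, an activator of indole glucosinolates, at 46.2 and 40.6 against 99.8 and 123 CPM, whereas *MYB34*, of the same function, fell from 11.7 and 16.1 to 5.86 and 5.36 CPM. Without wild type library 2 the number higher was 4.

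The genes with the largest rises had unlike annotations. *BCB*, a blue copper-binding protein induced by stress, was at 28.1 and 21.3 CPM in the wild type libraries and 302 and 295 CPM in the *iaa3* libraries, a 12.1-fold higher mean. *PI* (PISTILLATA), a MADS-box gene of petal and stamen identity, was at 3.04 and 1.75 CPM in the wild type libraries and 26.6 and 16.5 CPM in the *iaa3* libraries. Both lie on the plus strand of chromosome 5 with 1155 bases between them, *BCB* at chr5:6826365-6827748 and *PI* at chr5:6828904-6831515 in TAIR10.1, and reads running from one into the other were not separated here. *CML41*, a calmodulin-like protein, rose from 2.81 and 4.71 to 34.8 and 46.2 CPM, *PLA2A*, a patatin-type lipase, from 22 and 18.7 to 149 and 161 CPM, and the chitinase-family gene *AT2G43620* from 16.1 and 17.8 to 108 and 109 CPM. *GPAT3*, a glycerol-3-phosphate acyltransferase, rose from 3.63 and 4.71 to 19.5 and 27.7 CPM, *FLOT1*, a flotillin of endocytosis, from 6.26 and 5.06 to 27 and 34.7 CPM, and *BCS1*, an AAA-type ATPase, from 5.26 and 6.38 to 34 and 48.3 CPM. The ankyrin-repeat genes *AT5G54710* and *XBAT34* rose from 1.41 and 1.67 to 18.5 and 21.8 CPM and from 5.4 and 4.51 to 29.4 and 34.2 CPM, and *AT5G42530*, annotated without a function, from 5.81 and 8.85 to 39.8 and 40.9 CPM.

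**Figure D4:**
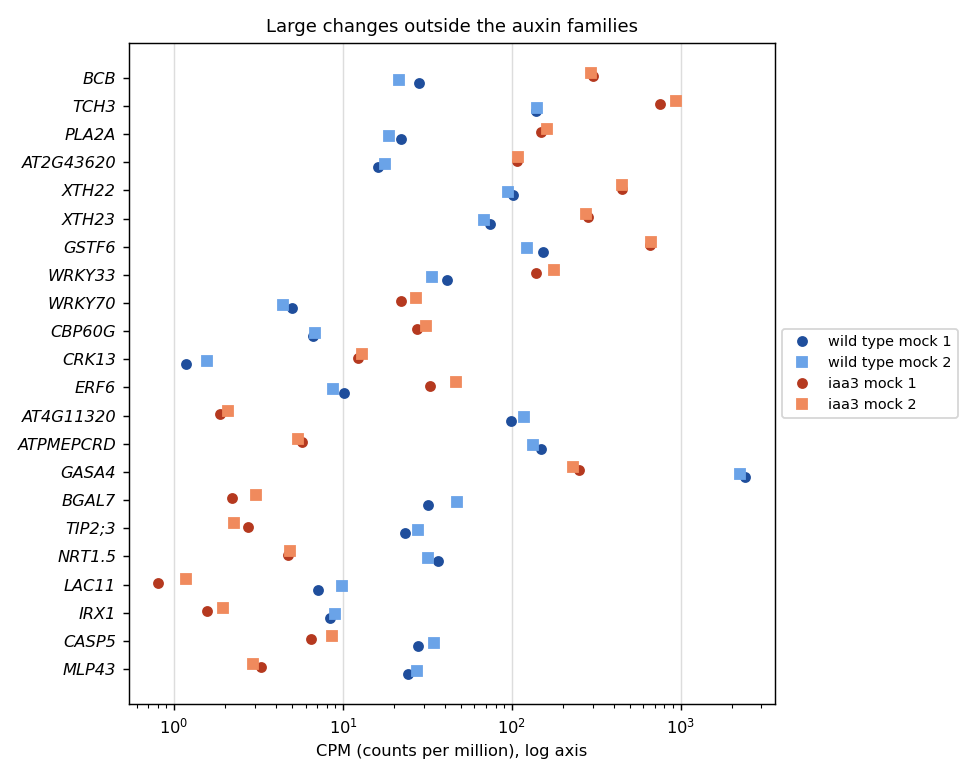
CPM on a log axis of 22 genes outside the auxin families in each of the 4 mock libraries, blue for wild type and red for *iaa3*, circles for replicate 1 and squares for replicate 2. In the 12 upper genes, *BCB* to *ERF6*, both *iaa3* values lie to the right of both wild type values, and in the 10 lower genes, *AT4G11320* to *MLP43*, they lie to the left.

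Cell division genes fell more often than they rose. Of 41 cell cycle genes 11 fell and 1 rose, with a median of -0.38, and *CYCD1;1*, a D-type cyclin of cell cycle entry, fell from 23.9 and 25.9 to 7.47 and 6.94 CPM. That count was 7 without wild type library 2 and 5 without *iaa3* library 1. Genes whose symbols begin with MCM, most of them subunits of the helicase that opens replication origins, gave 5 of 8 lower, but 1 without either of these 2 libraries. Stomatal lineage genes gave 3 of 13 lower (median -0.72), with the receptor kinase *ERL1* at 2.9 and 4.43 against 1.43 and 1.63 CPM and the peptide gene *STOMAGEN* at 16.5 and 17.7 against 7.96 and 8.71 CPM. The morning clock genes *CCA1* and *LHY* fell from 33.2 and 26.7 to 12.3 and 11.9 CPM and from 16.3 and 11.8 to 6.12 and 5.4 CPM, within 4 lower and 1 higher of 20 clock genes.

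Nuclear photosystem and light-harvesting genes gave 6 of 50 lower (12%, against 9.48% of all tested genes) and 1 higher. This count rested on single libraries, with 10 lower without wild type library 1 and 1 lower and 4 higher without wild type library 2. Of 16 chlorophyll synthesis genes 4 fell (25.0%) and none rose, with *POR C* at 13.3 and 23.8 against 6.84 and 8.31 CPM and *GUN5*, a magnesium chelatase subunit, at 309 and 363 against 173 and 177 CPM. Of 40 root hair genes 4 rose and 1 fell, and 1 or none rose without wild type library 2 or *iaa3* library 2. Of 33 small heat shock genes 4 fell (12.1%) and none rose, with 7 lower when scaled by library size alone and 2 without *iaa3* library 2. Heat shock factors and large chaperones gave 3 of 37 higher (8.11%) and 4 lower (10.8%), near the shares of all tested genes, 8.47% and 9.48%. Their median was -0.09, or -0.13 without wild type library 1. Of 28 wax and elongase genes 3 fell (10.7%, near the 9.48% of all tested genes), or 6 by library size alone. *CER1*, an enzyme of alkane synthesis, was at 37.9 and 60.1 against 12.3 and 18.9 CPM.

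The hypoxia genes depended on which wild type library they were set against. With all libraries 6 of 24 rose and none fell, and the median was 0.89. Without wild type library 1, 22 rose and the median was 2.27. Without wild type library 2, 3 rose (median 0.26), and without *iaa3* library 1, 2 rose (median 0.54). *ADH1*, the alcohol dehydrogenase of fermentation, chosen after its value was seen, was at 386 and 52.9 CPM in the wild type libraries and 1015 and 431 CPM in the *iaa3* libraries and did not pass the test. *SUS1*, a sucrose synthase, was at 47.8 and 17.5 CPM in the wild type libraries and 141 and 72.4 CPM in the *iaa3* libraries, and *HB1*, a nonsymbiotic hemoglobin, was at 189 and 55 against 472 and 311 CPM. For both, the *iaa3* values were above both wild type values, but without *iaa3* library 1 neither passed the test, with log2 changes of 1.16 and 1.35 against 1.72 and 1.68. *AlaAT1*, an alanine aminotransferase of low oxygen metabolism, rose from 203 and 157 to 432 and 355 CPM, and it passed the test whichever library was left out. The difference of the first libraries from the second was in the same direction in wild type (6469 against 2624 CPM summed) and in *iaa3* (9609 against 6825 CPM). Oxygen supply in the cultures was not measured.

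Seed storage genes were at their highest in wild type library 1. Of 19 tested members 10 fell and none rose, with a median of -3.50, or -3.66 with near-absent members at their bound and -1.57 without wild type library 1. *CRA1*, a cruciferin, was at 618 and 97.6 CPM in the wild type libraries and 3.84 and 1.45 CPM in the *iaa3* libraries. *CRU3*, another cruciferin, was at 206 and 15.6 CPM in the wild type libraries and 2.19 and 0.908 CPM in the *iaa3* libraries, and its change of -6.14 became -3.32 without wild type library 1, which did not pass the test, as it did not without *iaa3* library 2 (-5.65). *PAP85*, a vicilin-like storage protein, was at 67.2 and 15.4 CPM in the wild type libraries and 1.16 and 1.27 CPM in the *iaa3* libraries, and the late embryo gene *M17* was at 39.4 and 5.66 CPM in the wild type libraries and 4.83 and 0.363 CPM in the *iaa3* libraries. *M17* did not pass the test without wild type library 1 (-1.12) or *iaa3* library 2 (-2.20). *OLEO2*, an oil body protein, had 142 and 38 counts in the wild type libraries and 2 and 1 in the *iaa3* libraries, at least 29.4-fold lower, or at least 11.2-fold against wild type library 2 alone, and *ECP63*, a late embryogenesis protein, had 108 and 35 counts in the wild type libraries and 2 and 0 in the *iaa3* libraries. The number of members lower was 6 without wild type library 1, 14 without wild type library 2 and 6 without *iaa3* library 2. The summed storage RNA level, at its lowest in *iaa3*, differed between the wild type libraries by a factor larger than that between wild type library 2 and the *iaa3* libraries. For *CRA1*, *PAP85* and *OLEO2* the factor between wild type library 2 and the *iaa3* libraries was the larger. For *CRU3* and *M17* it depended on the *iaa3* library.

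Other large falls were in genes outside the storage list. *AT4G11320*, a papain-family cysteine protease, was at 99.1 and 117 CPM in the wild type libraries and 1.88 and 2.09 CPM in the *iaa3* libraries, a log2 change of -5.77 ± 0.13 (adjusted p = 2.56e-09). *AT1G80280*, of the alpha/beta hydrolase superfamily, fell from 19.6 and 15.5 to 2.5 and 2.22 CPM. At the lower limit of detection, 188 tested loci had at most 3 counts in both *iaa3* libraries, 110 of them called, and 89 had at most 3 in both wild type libraries, 38 of them called. The former included *AT2G42560*, a late embryogenesis abundant gene, at 384 and 53 counts in the wild type libraries and 1 and 0 in the *iaa3* libraries, and *AT3G42800* at 79 and 59 counts in the wild type libraries and 3 and 0 in the *iaa3* libraries. The latter included *LSH8*, a member of a family of light-dependent hypocotyl growth genes, at 3 and 1 counts in the wild type libraries and 44 and 31 in the *iaa3* libraries, at least 13.2-fold higher, and *AT4G33720*, a pathogenesis-related CAP family gene, at 1 and 1 counts in the wild type libraries and 29 and 43 in the *iaa3* libraries, at least 12.7-fold higher. *AT5G22520*, without an annotated function, had 1 and 2 counts in the wild type libraries and 70 and 96 in the *iaa3* libraries, at least 29.3-fold higher.

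The called genes were spread over the genome. Between 17.5% of the tested genes of chromosome 2 and 18.8% of those of chromosome 4 were called, and 6 of 65 chloroplast genes (9.23%) and none of 18 mitochondrial genes, of which none had an unadjusted p under 0.05 in edgeR either. In windows of 100 neighbouring tested genes the median was 18 called genes. The window around *IAA3* held 15, and the fullest, on chromosome 4 from *AT4G22380* to *AT4G23690*, held 39.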

How the data were processed

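RNA-Seq libraries of total RNA had been made with the TruSeq kit. Per the labels, the authors processed reads with CASAVA version 1, TopHat and HTSeq on TAIR 9; strand setting, treatment of multiply mapped reads and separation of neighbouring transcripts are not given in the sources used here. The deposited values are counts per locus, not normalized, for all 8 libraries. Groups came from sample titles.

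Loci passing edgeR's filterByExpr by group were tested with edgeR's quasi-likelihood test (edgeR 4.0.16, R 4.3.3; TMM factors, 1 coefficient per group, all 8 libraries, 4 residual degrees of freedom) with Benjamini-Hochberg adjustment over all 20415 genes tested. Genes were called at 1.5-fold and unadjusted p under 0.01, after the study's methods. CPM values use TMM-scaled library sizes. Where both libraries of a group had at most 3 counts, a bound on the fold was computed with 3 counts per library in place of the counts. The script was tested on simulated data. Alternatives were RLE factors, library size alone, DESeq2 1.42.0, other filters and thresholds, the 4 mock libraries alone, a replicate block and leaving out each library. Locus names, products and positions came from RefSeq for TAIR10.1, which matched 20281 tested loci; no position was taken from TAIR 9. Promoter windows were read from that genome.

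Gene lists and members were chosen with earlier results of these data known. Named genes were genes of the study's question and the 12 largest rises and falls with a mean log2 CPM not below 3. Others were the 3 largest each way in a list, 2 each way in a family by symbol prefix, and 5 each way among near-absent genes. The largest changes and genes from lists and families had to be called without overlap between libraries, so this trait follows from the choice. Of all 20415 tested genes 14064 (68.9%) did not overlap. Families by symbol prefix, such as ERF, CRK and IRX, were named only for a high share called in one direction. Their high shares follow from that choice. *IAA2*, *IAA7*, *IAA17*, *SAUR36*, *SAUR44*, *BNQ2*, *WRKY33*, *ADH1*, *AT1G21400* and genes shown only in plots were added after their values were seen. Precision is limited by 2 libraries per group. Bounds use 3 counts per library as a floor and take the level of the other group as exact, so they are not confidence limits.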

Additional observations from a re-analysis of the deposited data

Results flagged for a closer look

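The difference between *iaa3* and wild type was compared with the same difference in the BL-treated libraries by the interaction term of the edgeR fit. At an adjusted p under 0.05 this term was past the threshold for 3589 of 20415 genes tested, and for 17 of the 37 genes that belong to the study's question or to the 24 largest changes, 12 of them with a larger and 5 with a smaller or turned difference under BL. The interaction value is the log2 fold change under BL minus that under mock. It does not show in which genotype a level changed with BL. For *IAA3* it was -1.49, for *IAA19* -3.04, for *PRE6* -1.63 and for *SAUR15*, near its detection limit in mock, -5.08. These genes were lower in *iaa3* without BL, and their difference from wild type was larger with BL. The interaction value was -1.69 for *TIP2;3* and -0.91 for *AT1G80280*, in the same sense. For *CRA1* it was 5.44, for *GASA4* 1.60 and for *ATCSLA09* 1.09, a smaller deficit in *iaa3* under BL.

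Among genes that rose, the interaction value was 1.07 for *PLA2A*, 0.62 for *AT2G43620* and 1.14 for *AT5G42530*, a larger rise with BL, and -1.57 for *TCH3*, a smaller one. For *GPAT3* it was -2.55, and the log2 difference under BL was -0.06. *ARF8*, *BZR1* and *IBH1*, none of them called in mock, had values of 0.55, -0.46 and -0.43. Of the 248 other named genes 75 passed the same threshold, 28 with a larger and 47 with a smaller or turned difference. Over all tested genes the split was 1390 larger and 2199 smaller or turned. Most named genes were chosen by their mock difference, which enters the interaction value, so their counts depend on that choice.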

How the results depend on the processing

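The numbers of called genes stayed within 1.5 times of 3664 under every alternative run except a 2-fold threshold, which left 1906 (824 higher, 1082 lower). DESeq2 called 3097 and library size alone 3834, with 1306 higher and 2528 lower. Leaving out 1 library gave 3116 to 3751 calls, 1568 to 1814 of them higher and 1518 to 1937 lower, and kept 79.1% of the called genes without wild type library 2 to 86.8% without wild type library 1. With 1 library left in a group, that library is assumed to vary like those of the other groups. Of 285 named genes, 248 to 260 kept their side of the threshold without a given library, and none of them reversed in any alternative run. With the replicate number as a block 3678 genes were called (1761 higher, 1917 lower). Deviations of same-numbered libraries correlated at 0.237 over all tested genes between the mock groups (0.465 over 13026 expressed genes) and at -0.063 to 0.059 in the other pairs of groups (-0.065 to 0.117). With 2 numbers only, and no label that ties them to a culture or day, they were not treated as pairs. The block changed no call of a named gene, but 9 hypoxia genes were then higher in place of 6. Depth limits genes near 3 counts.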

Other observations

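A further grouping by the RefSeq product name, made after the values were seen, is given here as counts only. It added families that the lists do not hold. The families shown have a high share called in one direction, which follows from that choice. Over all tested genes 8.47% rose and 9.48% fell. Of 18 genes annotated as CC-NBS-LRR disease resistance proteins, 1 rose (5.56%) and none fell. Of 53 tested genes annotated as TIR-NBS-LRR disease resistance proteins, intracellular immune receptors, 15 rose (28.3%) and 2 fell. *AT5G58120* was at 1.32 and 1.2 CPM in the wild type libraries and 8.58 and 6.67 CPM in the *iaa3* libraries, and *AT5G41750* and its neighbour in number *AT5G41740* rose from 2.18 and 2.35 to 10.4 and 12.6 CPM and from 1.91 and 1.48 to 6.8 and 6.94 CPM. S-locus lectin receptor kinases gave 9 of 21 higher and 1 lower, with *AT4G27300* at 4.9 and 4.78 against 19.4 and 20.3 CPM, and FAD-binding berberine-family oxidases gave 9 of 19 higher and 2 lower, with *AT1G26420* at 2 and 1.12 against 11.3 and 9.53 CPM.

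Lower in *iaa3* were 24 of 47 genes of the lipid-transfer and 2S albumin superfamily, with 5 higher, such as *AT4G22485* at 55.2 and 60.5 against 11.8 and 17.3 CPM. Pectin lyase-like genes, which include pectate lyases and polygalacturonases, gave 17 of 45 lower and 5 higher, with *AT5G48900* at 44.8 and 45.9 against 7.64 and 8.4 CPM and *AT3G07010* at 43.6 and 37.8 against 9.3 and 10.2 CPM. Dirigent-like genes gave 9 of 18 lower and 2 higher, with *AT4G11190* at 9.62 and 15.6 against 0.805 and 1.27 CPM, and 2 others, *DIR5* and *DIR6*, at 33.7 and 32.4 against 109 and 99.9 CPM and at 69.5 and 92.1 against 122 and 121 CPM, rose. Genes of a late embryogenesis abundant family gave 7 of 9 lower, and *LEA7*, at 8.66 and 2.47 against 0.313 and 0.363 CPM, was higher in wild type library 1 than in library 2, as the storage genes were.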
